A study of Mus musculus with 4 samples.

Results

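The regions described here are the upstream shores of CpG-rich promoters. Each is the stretch of 3000 bp that ends where a promoter rich in measured CpG sites begins, and so reaches 4000 bp upstream of the transcription start site (TSS). A CpG site is a cytosine followed by a guanine, counted here on each strand, and a site qualified when at least 20 reads covered it in all 4 tumors. The promoter, which spans 1000 bp before the TSS and 500 bp after it, had to hold at least 20 qualified sites. Of 39627 TSS of 20807 autosomal protein-coding genes, 16623 met this minimum, and 7713 of their stretches overlapped no promoter window of any annotated gene. At least 3 qualified sites were found in 1007 of these stretches, which lie upstream of 1000 genes and are the shores reported below. They hold 10877 of the 1081076 qualified sites on the autosomes and chromosome X. There were 7 genes with 2 stretches each, and no stretch overlapped another. Most of the other 6706 stretches, 6075 of them, had no qualified site at all.

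The DNA came from tumors grown in the leg of syngeneic female 129Sv/Ev mice aged 12 to 16 weeks. One group of 2 tumors was formed by 344SQP, a parental lung adenocarcinoma line from a mouse model whose alleles include p53 R172HΔg/+, and the other group of 2 by 344SQR, a line made from 344SQP that acquired resistance to the antibody anti-PD1. Anti-PD1 (10 mg/kg, intraperitoneal) was given to all mice 4 times, starting on day 4, and tumors were taken 24 h after the last dose, so the groups differ in the line and not in the treatment. Each group stands for a single cell line, and the DNA is that of whole tumors, in which the cells of the host are included.

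In most cells the CpG islands at active and poised promoters carry little methylation. The flanks of an island, where CpG density declines, are called shores, and there the DNA passes from the unmethylated island to the methylated state of most of the genome. Shores are known as places where methylation often differs between tissues and between tumors and normal tissue. The comparison asks whether the resistant line differs from its parent in this zone.

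The method, reduced representation bisulfite sequencing (RRBS), reads a selected part of the genome: DNA is cut at CCGG motifs, short fragments are treated with bisulfite, and each cytosine is then read as methylated or unmethylated. The methylation level of a site is the percent of its reads that were methylated, and the level of a stretch is the mean over its qualified sites. The 344SQP tumors had 116794455 and 138331886 CpG calls in all, and the 344SQR tumors had 160548303 and 174689402. At the sites of the shores the median coverage was 94 and 108 reads in 344SQP and 124 and 125 reads in 344SQR. The resistant tumors were thus read more deeply. A site with just 20 reads changes by 5 percentage points with each read, so single sites are coarser than the means over a stretch. A stretch held a median of 6 qualified sites, with a lower quartile of 4, an upper quartile of 11 and a highest number of 115.

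Averaged over stretches, shore methylation was lower in both resistant tumors than in both parental tumors. The mean over the 1007 stretches was 53.8% and 56.1% in the 344SQP tumors and 51.7% and 50.3% in the 344SQR tumors. The groups did not overlap, and the gap between the nearest tumors of the lines was about as wide as the distance between the parental tumors. The line means were 54.9% ± 1.62 (SD, n = 2) in 344SQP and 51.0% ± 0.950 (SD, n = 2) in 344SQR, a difference of −3.91 percentage points. By the two-sided exact permutation test over tumors p was 0.333, the smallest that 2 against 2 tumors can give, so no single value of this kind can pass a threshold of 0.05. With 1 tumor left out in turn, the difference ranged from −5.06 to −2.77. The median stretch stood at 57% and 62.3% in 344SQP and at 53.6% and 53.2% in 344SQR, which gives a difference of −6.26 points. The difference of the medians was −3.60 without replicate 2 of 344SQP and −8.92 without replicate 1 of 344SQP. In DNA of whole tumors, a change in the mix of cells and a change of methylation within the cells cannot be told apart.

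In the resistant tumors fewer shores were above 80%, and more were in the intermediate and the low class. Stretches above 80% made up 35.9% and 38.2% of the shores in the 344SQP tumors and 32.2% and 28.5% in the 344SQR tumors. Intermediate stretches, from 20 to 80%, made up 38.8% and 38.4% in 344SQP and 41.9% and 43.9% in 344SQR. The share under 20% was 25.2% and 23.3% in 344SQP against 25.9% and 27.6% in 344SQR. In each of these classes both resistant tumors lay on the same side of both parental tumors, with an exact two-sided p of 0.333 for each. Over single stretches the difference between line means ranged from −43.3 to 34.9 points, with quartiles of −7.57, −2.19 and 0.120. The mean was lower in 344SQR in 737 stretches and higher in 270. A decrease of at least 10 points was seen in 178 stretches and an increase of that size in 31, and at 20 points these counts were 38 and 2. Over windows of 1000 bp outside promoters and shores, described below, the mean difference was larger, at −7.02 points against −3.91 in the shores.

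Shores were then tested one by one, together with all other regions measured. For every site a logistic model with the line was compared with one without it by their likelihood ratio, the sites of a region were combined by a signed Stouffer z score, and the result was adjusted by the Benjamini-Hochberg method over 73673 regions, of which 18243 were gene promoters and 54423 were windows of 1000 bp elsewhere. Below, called means a false discovery rate (FDR) under 0.05 in this test. Of the 1007 shores, 488 (48.5%) were called lower in 344SQR, where 51.2% of all regions were, and 114 (11.3%) were called higher, where 7.86% of all regions were. The regions are a mixture, of which 29.5% of promoters and 58.6% of windows were called lower, and the shores lie between these. Of promoters 9.84% and of windows 7.13% were called higher. The count of higher shores was 75 without replicate 1 of 344SQP and 62 without replicate 2 of 344SQR, so it rests in part on these 2 tumors. Of the 1007 shores, 192 (19.1%) were called with a difference under 5 points, against 21.4% of promoters and 14% of windows. Both resistant tumors lay below both parental tumors in 409 shores, with 44.1% of all regions for comparison, and above them in 53, with 5.76% of all regions. Called and apart in the same direction were 378 (37.5%), against 22% of promoters and 46.7% of windows.

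This test treats reads as independent and takes no account of the spread between tumors. The quasi-likelihood test of edgeR, which does, called 0 of the 1007 shores lower and 0 higher after Benjamini-Hochberg adjustment, against 0.138% of all regions called lower and 0% called higher. At an unadjusted p under 0.05, edgeR picked 126 shores (12.5%), 118 of them lower and 8 higher in 344SQR, against 16.2% of all regions. The linear models of limma on log2 ratios of methylated to unmethylated reads also called 0, with 134 shores (13.3%) at an unadjusted p under 0.05, of which 125 were lower and 9 higher, against 17.2% of all regions. By both tools the share of shores was below that of the regions as a whole and above that of promoters. Promoters stood at 9% in edgeR and 6.12% in limma, and windows at 18.7% and 21%. Higher picks alone made up 0.794% of shores in edgeR and 0.894% in limma, against 0.698% and 0.812% of all regions. The most extreme shore in edgeR was that of Wnt10b, with an adjusted p of 0.106. The calls named below therefore describe these 4 tumors, and no individual shore passed these tests of edgeR and limma.

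The mean over the promoters next to these shores did not share the shift. Mean methylation of the own promoter of each stretch was 7.18% and 10.2% in the 344SQP tumors and 7.40% and 10.2% in the 344SQR tumors. The lines interleaved, and in both of them the tumor labelled replicate 2 was the higher one. Their difference was 0.114 points, with means of 8.69% ± 2.13 (SD, n = 2) and 8.80% ± 1.99 (SD, n = 2) and an exact two-sided p of 0.667. Without replicate 1 of 344SQP this difference was −1.39 points, and without replicate 2 of 344SQR it was −1.29, so the sign for promoters depends on single tumors. The median difference of the promoters was −0.110 points. In the promoter bins of 500 bp, 62.1%, 59.9% and 59.2% of those with sites were lower in 344SQR, so most promoters differed slightly in the direction of the shores. Subtracting the own promoter from each stretch left 46.6 and 45.9 points in 344SQP and 44.3 and 40.1 points in 344SQR. This gap between shore and promoter was narrower in both resistant tumors than in both parental tumors, with a difference of −4.03 points and an exact two-sided p of 0.333. That difference was −1.95 points without replicate 2 of 344SQR and −6.10 without replicate 1 of 344SQR. Across the 1007 stretches, the difference of the shore and that of its own promoter were nearly unrelated, with a Pearson correlation of 0.0251 and a Spearman correlation of 0.0508, over stretches of the same 4 libraries, which are not independent replicates. Among the 488 shores called lower, the promoter of the gene was called lower in 125, higher in 69 and neither in 294. These are 25.6%, 14.1% and 60.2%, near the 24.7%, 14.6% and 60.7% over the promoters of all 1007 shores.

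Windows outside promoters and shores had a larger mean difference in these tumors. In the 54423 windows elsewhere the mean was 70.8% and 70.5% in 344SQP and 66.4% and 60.8% in 344SQR, a difference of −7.02 points that was −4.23 without replicate 2 of 344SQR. Relative to these windows, the shores stood at −17.0 and −14.4 points in 344SQP and at −14.7 and −10.5 points in 344SQR. The lines overlapped in this comparison, since one resistant tumor lay between the parental tumors, and the exact two-sided p of the difference of 3.10 points was 0.667. That difference was 0.993 without replicate 2 of 344SQR, 1.81 without replicate 1 of 344SQP and 5.22 without replicate 1 of 344SQR, so its size rests on single tumors. Regions were also compared by level. Among regions of 20 to 80% methylation over all tumors, the 427 shores differed by −5.24 points on average and the 23439 windows by −11.3. The windows were at 64.9% and 63.9% in 344SQP and at 57.4% and 48.8% in 344SQR, and without replicate 2 of 344SQR their difference was −6.95, against −5.00 in the shores. The difference of these intermediate shores was −2.91 without replicate 2 of 344SQP. Above 80% the 338 shores differed by −3.89 points and the 24635 windows by −4.28 (−2.33 and −2.24 without replicate 2 of 344SQR), and under 20% the 242 shores differed by −1.61 points and the 6349 windows by −1.97.

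Methylation climbed steadily with distance from the TSS in every tumor. In the last 500 bp before the TSS, the mean over the promoters with sites there was 6.84% and 9.36% in 344SQP and 6.51% and 8.75% in 344SQR. In the 500 bp upstream of that it was 18.4% and 22.0% in 344SQP and 18.3% and 20.4% in 344SQR. At the start of the shore, up to 1500 bp, the 430 stretches with sites stood at 35.5% and 38.1% in 344SQP and at 34.3% and 34.7% in 344SQR. The step from a mostly unmethylated to a mostly methylated state thus fell inside the shore. From 1501 to 2000 bp the means were 50.4% and 53.8% in 344SQP and 48.6% and 48.6% in 344SQR, and from 3501 to 4000 bp they were 64.4% and 65.7% in 344SQP and 62.0% and 59.3% in 344SQR.

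In each of the 6 bins of 500 bp both resistant tumors were below both parental tumors. The differences were −2.32 points up to 1500 bp, −3.50 at 1501 to 2000 bp, −3.62 at 2001 to 2500 bp, −4.55 at 2501 to 3000 bp, −4.76 at 3001 to 3500 bp and −4.36 at 3501 to 4000 bp. In the nearest bin the difference was −1.0 without replicate 2 of 344SQP and −3.63 without replicate 1 of 344SQP. Leaving out replicate 2 of 344SQP also gave −1.79 at 1501 to 2000 bp, −2.20 at 2001 to 2500 bp and −3.12 at 3001 to 3500 bp. In the nearest bin 286 of 430 stretches were lower in 344SQR (66.5%), and in the farthest bin 166 of 238 (69.7%). The exact two-sided p was 0.333 in the nearest and in the farthest bin. The rise from the nearest to the farthest bin was 28.9 and 27.5 points in 344SQP and 27.7 and 24.6 points in 344SQR, with a difference of −2.04 points and an exact two-sided p of 0.667. Without replicate 2 of 344SQR that difference was −0.495, without replicate 1 of 344SQR it was −3.59, and it was −1.37 without replicate 1 of 344SQP. Different stretches fill different bins. In the 44 stretches with sites in both the nearest and the farthest bin, a comparison chosen after seeing the data, the differences were −2.61 points near the promoter and −0.131 points far from it. With 1 tumor left out, the near value ranged from −5.14 (no replicate 1 of 344SQP) to −0.0865 (no replicate 2 of 344SQP). The far value was −1.76 without replicate 1 of 344SQP, −1.15 without replicate 2 of 344SQR, 0.883 without replicate 1 of 344SQR and 1.50 without replicate 2 of 344SQP, so its sign rests on single tumors. In the 2 stretches with sites in all 6 bins, the difference far from the promoter minus that near it was −2.26 points. Without replicate 2 of 344SQR these 2 stretches differed by −0.367 points near the promoter and by −1.02 points far from it. Without replicate 1 of 344SQR these values were 4.74 and 0.866 points, so the size of this contrast rests on single tumors. The comparisons within the same shores thus differed in sign.

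The shores held a median of 46 CpG dinucleotides in the reference sequence, with quartiles of 35 and 63, a GC content of 48.8% and 5 CCGG motifs. Stretches left out for too few qualified sites held a median of 27 CpG dinucleotides, a GC content of 43.9% and 2 CCGG motifs, and 18.6% of them had no CCGG at all. Soft-masked repeats covered a median of 19.6% of a shore and 28.9% of a left-out stretch. The measured shores are therefore the CpG-richer and repeat-poorer part of all upstream stretches, as RRBS reads fragments that end at CCGG.

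Shores poor in CpG were more methylated than shores rich in CpG in every tumor. The shores were divided by CpG number into 4 classes of nearly equal size. The CpG-poorest class, with 12 to 35 CpG in 253 stretches, stood at 68.6% and 67.7% in 344SQP and at 64.4% and 58.5% in 344SQR. Of its stretches 136 (53.8%) were called lower and 12 (4.74%) higher. In the CpG-richest class, with 64 to 165 CpG in 251 stretches, the means were 29.2% and 35.2% in 344SQP and 29.5% and 33.5% in 344SQR. Here 103 (41.0%) were called lower and 49 (19.5%) higher. Of all shores 48.5% were called lower and 11.3% higher, and of all regions 51.2% and 7.86%. The lines were apart in the poorest class and overlapped in the richest, where replicate 2 was above replicate 1 in both lines. Mean differences over the classes, from poor to rich, were −6.68, −4.88, −3.34 and −0.732 points. The test of poorest minus richest class gave −5.95 points and an exact two-sided p of 0.667, so the contrast between classes did not exceed the spread between tumors. Leaving out replicate 2 of 344SQR gave −1.01 for this contrast and −3.73, −3.53, −2.98 and −2.72 for the classes, a nearly flat series. The contrast was −2.55 without replicate 1 of 344SQP, −9.35 without replicate 2 of 344SQP and −10.9 without replicate 1 of 344SQR, and in these last 2 cases the richest class was higher in 344SQR (2.26 and 1.26 points). Across stretches the difference correlated with the number of CpG at a Pearson value of 0.280 and a Spearman value of 0.295, over stretches of the same 4 libraries. Stretches with 3 or 4 sites differed by −5.55 points on average, those with 5 to 9 by −4.93 and those with 10 or more by −0.891. These values were −3.22, −3.85 and −2.62 without replicate 2 of 344SQR, and the last was 1.64 without replicate 2 of 344SQP and 0.836 without replicate 1 of 344SQR. The classes by CpG thus kept their order whichever tumor was left out, but the size of the contrast rests on single tumors. The classes by sites changed order without replicate 2 of 344SQR.

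Shores inside transcripts were more methylated than those between genes, with a similar mean difference between the lines. Of the 10877 shore sites, 53.5% were intergenic, 25.3% lay in introns and 21.2% in exons, in each case of other transcripts or of neighbouring genes as annotated. Over single sites, where stretches with many sites weigh more, the lines overlapped at the intergenic ones, with 29.4% and 34.0% in 344SQP and 28.4% and 30.9% in 344SQR. At intronic sites they overlapped as well, with 34.3% and 38.5% in 344SQP and 34.2% and 36.4% in 344SQR, and at exonic sites the means were 56.0% and 59.0% in 344SQP and 55.3% and 55.2% in 344SQR. The lower level in both resistant tumors thus holds for means over stretches and not for all sites taken singly. Shores with all sites between genes numbered 547 and had means of 47.8% and 50.5% in 344SQP and 45.6% and 44.9% in 344SQR. Those with all sites inside a transcript numbered 442 and had means of 61.3% and 63.1% in 344SQP and 59.3% and 57.2% in 344SQR. Both kinds were lower in both resistant tumors, with mean differences of −3.91 and −3.99 points, and the 18 shores with sites of both kinds differed by −2.20. These values were −2.54, −3.12 and −1.28 without replicate 2 of 344SQP. Classes of own-promoter methylation were also close together: shores of promoters under 5% methylation differed by −3.91 points (701 stretches), those of promoters from 5 to 20% by −4.62 (157 stretches) and those of promoters at 20% or more by −3.18 (149 stretches). Without replicate 2 of 344SQP the last class was at 0.798 points and the middle one at −2.70, so the likeness of the classes rests on all 4 tumors. Near the minimum of 3 sites, the 308 stretches with 2 sites, which are not counted as shores, differed by −6.47 points and the 197 with 3 sites by −5.88, or by −3.55 and −3.67 without replicate 2 of 344SQR. The 96 stretches whose promoter held 15 to 19 sites differed by −5.51 points and the 113 with 20 to 24 by −5.63.

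Of the 638 shores with at least 5 sites, 214 were called lower and had no overlap between the lines. Without the minimum of 5 sites and in either direction, 37.5% of shores were called and apart, against 22% of promoters and 46.7% of windows. The 10 with the lowest differences among the 214 are described next. The largest decrease was at Wnt10b (ENSMUSG00000022996), which encodes a secreted Wnt ligand. Its stretch lies between genes on chromosome 15 from 98779151 to 98782150 (GRCm38, minus strand), and its 8 qualified sites are 2333 to 2668 bp upstream of the TSS. They were methylated at 47.4% and 58.3% in the 344SQP tumors and at 14.4% and 4.82% in the 344SQR tumors. All 8 sites were lower in 344SQR, and even the lower parental tumor was above the higher resistant tumor by a wide margin. The line means were 52.9% ± 7.69 (SD, n = 2) and 9.62% ± 6.78 (SD, n = 2), a difference of −43.3 points with an FDR of 6.40e-115 in the test of reads. Over 16 alternative settings and tests, the adjusted p of this shore ranged from 4.06e-153 to 0.240, the highest being that of limma. At the site farthest from the TSS, position 98780818, 45 of 69 and 67 of 79 reads were methylated in 344SQP, with 95% Wilson intervals of 53.4 to 75.4% and 75.3 to 91.1%. In 344SQR it was 10 of 71 and 4 of 84 reads, with intervals of 7.83 to 24.0% and 1.87 to 11.6%. The promoter of Wnt10b itself stood at 11.7% and 16.6% in 344SQP and at 13.6% and 19.4% in 344SQR, where the lines overlapped.

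Lrp2 and 2 genes of TGF-beta signalling follow. Lrp2 (ENSMUSG00000027070) encodes megalin, a large endocytic receptor, and its stretch lies between genes on chromosome 2 from 69587066 to 69590065. Its 9 sites, 1209 to 1275 bp upstream, were methylated at 26.4% and 44.2% in 344SQP and at 4.87% and 9.24% in 344SQR. All 9 sites were lower in 344SQR, in which this shore was nearly unmethylated, and the mean difference was −28.2 points. Its promoter, next to it, was at 11.4% and 16.6% in 344SQP and at 7.40% and 11.4% in 344SQR. Ltbp2 (ENSMUSG00000002020) encodes a latent TGF-beta binding protein of the extracellular matrix. At its 7 intergenic sites on chromosome 12, in the stretch from 84877533 to 84880532, methylation was 46.3% and 60.4% in 344SQP and 34.1% and 8.56% in 344SQR. The resistant tumors differed from each other more than the nearest tumors of the lines did, and the difference of −32.0 points became −19.2 without replicate 2 of 344SQR. Smad3 (ENSMUSG00000032402) transmits signals of TGF-beta and activin receptors. The 7 intergenic sites of its stretch on chromosome 9 from 63758995 to 63761994 were at 32.8% and 51.0% in 344SQP and at 17.6% and 11.0% in 344SQR. All were lower in 344SQR, with a mean difference of −27.6 points, while its promoter was unmethylated in every tumor, between 0.869% and 1.52%. Site depth at Smad3 was 32 to 197 reads, and at a coverage minimum of 50 reads its difference was −18.6 points. At its sites 3643 and 3649 bp upstream the lines overlapped, since replicate 1 of 344SQR was above replicate 2 of 344SQP.

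The other 6 of these shores were highly or moderately methylated in the parental tumors. The sites upstream of Gm47841 (a predicted gene) lie in an exon of Fignl2 and were at 88.5% and 88.5% in 344SQP and at 63.2% and 43.5% in 344SQR. Those upstream of Usf1, a basic helix-loop-helix transcription factor, lie in exons of Arhgap30 and were at 87.0% and 87.5% in 344SQP and at 72.1% and 48.1% in 344SQR. Eif4e2, which encodes a cap-binding protein, had its sites within Chrng, 6 in exons and 1 in an intron, at 87.0% and 92.7% in 344SQP and at 74.2% and 51.2% in 344SQR. The difference at Eif4e2 was −27.1 points, or −19.7 at a coverage minimum of 50 reads. In these 3 shores the parental tumors were similar to each other and highly methylated, and the resistant tumors were spread below them, with replicate 2 the lowest. Upstream of Myocd, a coactivator of serum response factor in smooth and heart muscle, the 8 intergenic sites were at 85.8% and 77.8% in 344SQP and at 63.3% and 47.9% in 344SQR. Spry4, an inhibitor of receptor tyrosine kinase signalling, had 7 sites in an intron of a long noncoding RNA at 79.0% and 83.3% in 344SQP and at 64.3% and 43.0% in 344SQR. Dnaic1, a dynein chain of motile cilia, had 10 sites in an intron of Fam219a at 53.3% and 55.1% in 344SQP and at 37.1% and 20.9% in 344SQR. Replicate 2 was again the lower resistant tumor in each. The differences of these 6 shores lay between −35.2 points at Gm47841 and −25.2 points at Dnaic1. Without replicate 2 of 344SQR, they were −16.9 at Spry4, −15.2 at Usf1 and −15.7 at Eif4e2, and all 10 shores were still called lower without any one tumor.

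In the other direction 18 of the 638 shores with at least 5 sites met the same rule, and the 10 with the highest differences follow. Tlx2 (ENSMUSG00000068327) encodes a homeobox factor of the enteric nervous system, and its 10 intergenic sites lie 1020 to 1067 bp upstream, at the promoter edge, in the stretch on chromosome 6 from 83071294 to 83074293. They were methylated at 9.49% and 9.24% in 344SQP and at 18.7% and 34.4% in 344SQR. The parental tumors were alike and low, and the resistant tumors were both above them and apart from each other. The mean difference was 17.2 points, or 9.35 without replicate 2 of 344SQR, and 9 of 10 sites were higher. Pax3 (ENSMUSG00000004872) encodes a paired-box factor of neural crest and muscle precursors, with 6 intergenic sites in the stretch on chromosome 1 from 78198135 to 78201134. Its shore was at 18.3% and 31.7% in 344SQP and at 36.3% and 45.8% in 344SQR, a difference of 16.0 points that was 9.30 without replicate 1 of 344SQP. The gap between the nearest tumors of the lines at Pax3 was smaller than the gap between tumors of a line, and 1 of its 6 sites was lower in 344SQR.

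Dbx1, a homeobox factor of the neural tube, had 15.8% and 20.3% in 344SQP and 26.9% and 36.3% in 344SQR at 7 intergenic sites. Sox7, an SRY-box factor of endothelial development, had 18.4% and 23.3% in 344SQP and 28.7% and 35.0% in 344SQR at 19 intergenic sites. Hcn4, the pacemaker channel of the heart, had 7.94% and 13.8% in 344SQP and 16.5% and 26.8% in 344SQR at 14 intergenic sites. In all of these the lowest level was in replicate 1 of 344SQP and the highest in replicate 2 of 344SQR, although 3 of the 7 sites at Dbx1 were lower in 344SQR. Onecut1, a factor of liver and pancreas development, was at 26.1% and 28.5% in 344SQP and at 36.7% and 38.6% in 344SQR, with tumors of a line close together. Tmem126a, a mitochondrial membrane protein, had 19.8% and 39.7% in 344SQP and 41.1% and 48.4% in 344SQR, so that its lines barely separated. The differences of Ttll1, a tubulin-modifying enzyme, Elavl3, a neuronal RNA-binding protein, and the forkhead factor Foxb1 were 10.4, 7.56 and 6.78 points. These higher shores depend more on single tumors than the lower ones. Without replicate 1 of 344SQP the difference was 5.02 at Tmem126a, and Elavl3 (2.38) and Foxb1 (4.40) were no longer called. Without replicate 2 of 344SQP it was 24.9 at Tmem126a and 12.7 at Elavl3. Without replicate 2 of 344SQR it was 8.91 at Dbx1 and 5.68 at Hcn4, and Ttll1 (6.30) and Foxb1 (4.61) were no longer called. At a coverage minimum of 50 reads, Onecut1 (2.90) and Elavl3 (4.47) lost their calls, and Sox7 was at 19.4 points. With a minimum of 10 reads Sox7 was at 17.0, and with the reads of a stretch pooled Onecut1 was at 3.68.

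The sequences measured at Wnt10b, Lrp2, Tlx2 and Pax3 are shown to place the sites within their shores. They are given on the strand of the gene, 5′ to 3′, from the reference genome of build GRCm38 (mm10), with the qualified CpG sites in capitals, and none of them holds an annotated exon. The Wnt10b run is chr15:98780764-98780828 on the minus strand and holds 5 of the 8 sites, which stood at 59.4% and 71.7% in 344SQP and at 17.8% and 5.66% in 344SQR. The Lrp2 run is chr2:69587264-69587350 on the minus strand and holds all 9 sites in 6 CpG dinucleotides. The Tlx2 run is chr6:83071303-83071370 on the minus strand and holds all 10 sites in 6 CpG dinucleotides. The Pax3 run is chr1:78200221-78200430 on the minus strand and holds 5 of the 6 sites, at 18.4% and 30.9% in 344SQP and 38.7% and 46.4% in 344SQR. Of the 11 CpG dinucleotides in the Pax3 run, 5 were measured, and it holds 2 CCGG motifs.
Wnt10b: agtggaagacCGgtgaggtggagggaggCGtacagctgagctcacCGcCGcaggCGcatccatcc
Lrp2: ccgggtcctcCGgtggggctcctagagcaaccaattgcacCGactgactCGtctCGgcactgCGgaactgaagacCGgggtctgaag
Tlx2: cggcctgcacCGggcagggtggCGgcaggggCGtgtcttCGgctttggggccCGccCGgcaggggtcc
Pax3: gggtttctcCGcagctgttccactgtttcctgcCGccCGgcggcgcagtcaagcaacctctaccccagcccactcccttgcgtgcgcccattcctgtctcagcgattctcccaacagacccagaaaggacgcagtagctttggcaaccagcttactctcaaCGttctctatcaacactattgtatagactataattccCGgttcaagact

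The shores of developmental transcription factors, a list of Hox, Pax, Sox, Fox, T-box and similar families that holds Pax3, Sox7 and Foxb1 but not Tlx2, Dbx1 or Onecut1, were called in both directions. Of 205 listed genes, 57 stretches qualified. Called lower were 24 (42.1%), against 48.5% of all 1007 shores and 51.2% of all regions. Called higher were 19 (33.3%), against 11.3% of all shores and 7.86% of all regions. The median difference of the 57 shores was −0.960 points, against −2.19 over all shores. Mean methylation of these 57 shores was 30.3% and 40% in 344SQP and 32.0% and 38.9% in 344SQR. The lines overlapped, and replicate 2 was above replicate 1 in both lines by more than the lines differed. Relative to the other 950 shores, those of developmental factors stood at −24.9 and −17.0 points in 344SQP and at −20.9 and −12.1 in 344SQR, with a difference of 4.47 points and an exact two-sided p of 0.667. This difference was 0.0694 without replicate 2 of 344SQR and 8.86 without replicate 1 of 344SQR. The 2 largest differences in the list were at Sox2, a factor of stem cells and neural progenitors, and at Foxf2, a forkhead factor of the mesenchyme. The shore of Sox2 (ENSMUSG00000074637, chromosome 3, 34646405 to 34649404) has 10 sites in an intron of the noncoding gene Sox2ot and was at 35.7% and 61.4% in 344SQP and at 58.5% and 85.6% in 344SQR. Replicate 1 of 344SQR lay below replicate 2 of 344SQP there, so the lines overlapped, and the mean difference of 23.5 points was 9.94 without replicate 2 of 344SQR, 10.6 without replicate 1 of 344SQP, 36.4 without replicate 2 of 344SQP and 37.1 without replicate 1 of 344SQR. Foxf2 was at 45.1% and 58.5% in 344SQP and at 55.1% and 86.4% in 344SQR over 4 sites, a mean difference of 19.0 points. Without replicate 2 of 344SQR it was 3.34 and not called, without replicate 1 of 344SQR it was 34.6, and without replicate 1 of 344SQP it was 12.2. Of the 57 shores, both resistant tumors were below both parental tumors in 13 and above them in 3, against 409 (40.6%) and 53 (5.26%) of all 1007.

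Signalling lists held few shores. BMP and TGF-beta signalling, with 63 listed genes, had 3 shores, at Ltbp2, Smad3 and Smad6, and all 3 were called lower with no overlap between the lines, against 48.5% of all shores called lower and 37.5% called and apart. Their median difference was −27.6 points, against −2.19 over all shores. Smad6, which encodes an inhibitory Smad of BMP signalling, had a shore that was almost unmethylated in every tumor, at 2.64% and 3.36% in 344SQP and at 2.05% and 2.15% in 344SQR, so its call rests on under 1 point. The Wnt list of 57 genes had 8 shores, 5 called lower (62.5%) and 2 higher (25%), against 48.5% and 11.3% of all shores, with a median difference of −6.33 points. Besides Wnt10b, the larger difference in it was at Fzd9, a Frizzled receptor, with 61.5% and 47.4% in 344SQP and 48.0% and 27.6% in 344SQR at 11 intergenic sites. The lines overlapped at Fzd9, since replicate 1 of 344SQR was above replicate 2 of 344SQP, and its difference of −16.6 points was −6.45 without replicate 2 of 344SQR, −26.8 without replicate 1 of 344SQR and −9.57 without replicate 1 of 344SQP. Potassium and calcium channels, 114 genes, had 13 shores, of which 7 were called lower (53.8%, near the 48.5% of all shores) and 0 higher in the test of reads, with a median difference of −3.37 points. Kcnk4, a background potassium channel, had 3 sites in an exon of Gpr137 at 42.3% and 34.4% in 344SQP and at 28.2% and 11.4% in 344SQR. Kcng1, a modulatory channel subunit, had 42.0% and 35.0% in 344SQP and 35.0% and 12.2% in 344SQR at 6 intergenic sites. Replicate 2 of 344SQR was the lowest tumor at both, and without it the difference at Kcnk4 was −10.1 in place of −18.5 points and that at Kcng1 was −3.53 in place of −14.9, where Kcng1 was no longer called. Without replicate 1 of 344SQR the difference at Kcng1 was −26.3 points.

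The lists of cell state and of basic cell functions held 1 to 6 shores each, to be read beside the 48.5% of all shores called lower, the 11.3% called higher and their median difference of −2.19 points. Of 6 shores in the list of epithelial and mesenchymal state, 2 were called lower (33.3%) and 3 higher (50%), with a median difference of 3.21 points. Their mean difference was 0.636 points. It was −5.30 without replicate 1 of 344SQP and −3.59 without replicate 2 of 344SQR. Without replicate 2 of 344SQP it was 6.57 and without replicate 1 of 344SQR 4.86, so its sign rests on single tumors. Cldn3, a claudin of tight junctions, was at 71.0% and 72.4% in 344SQP and at 61.1% and 46.7% in 344SQR, and its difference of −17.8 points was −10.6 without replicate 2 of 344SQR and −8.90 at a coverage minimum of 10 reads. Ovol2, a zinc-finger repressor that maintains epithelial cells, was at 18.3% and 52.3% in 344SQP and at 36.1% and 64.0% in 344SQR. Its lines overlapped, and the difference of 14.8 points became −2.23 without replicate 1 of 344SQP, 31.8 without replicate 2 of 344SQP, 28.7 without replicate 1 of 344SQR and 0.859 without replicate 2 of 344SQR, with no call in the first and the last case. At a coverage minimum of 10 reads it was 4.32. In the cell cycle and tumor suppressor list 1 of 6 shores (16.7%) was called, at E2f8, an atypical E2F repressor, and both resistant tumors lay below both parental tumors in 3, against 40.6% of all shores. It fell from 20% and 14.5% in 344SQP to 4.10% and 3.07% in 344SQR at 6 sites in an intron of a noncoding transcript. The other 5, with Cdkn1b at a difference of −1.70 points (−0.949 without replicate 2 of 344SQP and −1.05 with pooled reads), were not called, and the median of the list was −0.389 points. Of the 4 shores of DNA methylation and chromatin enzymes, only that of Kdm5b (25%), a histone H3 lysine demethylase, was called, with 2.70% and 2.59% in 344SQP and 1.93% and 2.28% in 344SQR over 62 sites. That difference of −0.533 points was not called without replicate 1 of 344SQP (−0.480), and the median over the 4 shores was −0.176 points. Dnmt3b, a de novo DNA methyltransferase, was highly methylated upstream in all tumors, between 82.5% and 86.5%. Among 5 shores of ribosomal proteins and the proteasome, 1 was called lower (20%) and 2 higher (40%), with a median difference of −0.0948 points. The lower one, Psmd1, had 95.1% and 93.8% in 344SQP and 90.2% and 90.4% in 344SQR and was not called without replicate 1 of 344SQP (−3.48 points), replicate 1 of 344SQR (−4.00) or replicate 2 of 344SQR (−4.20), and with pooled reads its difference was −2.31. Rps25, at −6.09 points, was called only without replicate 1 of 344SQR (−14.7), and its difference was −0.737 without replicate 1 of 344SQP and 2.48 without replicate 2 of 344SQR, so that its sign rests on single tumors. The list of interferon response and antigen presentation had 1 shore, at Irf2, an interferon regulatory factor, which was not called and stood between 93.4% and 96.2% in the 4 tumors.

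Other measures differed between the tumors as well. The hosts were female, and calls on chromosome Y numbered 406 and 254 per 1000000 in the 344SQP tumors and 555 and 178 per 1000000 in the 344SQR tumors. The value was lower in replicate 2 of each line, and the lines overlapped. None of the shores belonged to the 15 leukocyte markers or the 8 markers of endothelium and fibroblasts. Among promoters of leukocyte markers, that of Lcp1, an actin-bundling protein, was at 20.1% and 21.4% in 344SQP and at 19.3% and 19.8% in 344SQR. That of Coro1a, an actin-binding protein, was at 18.4% and 25.2% in 344SQP and at 18.1% and 28.6% in 344SQR. Promoters of endothelium and fibroblast markers with at least 3 sites were measured for 3 of 8 genes (Pdgfrb, Col1a2 and Kdr), with a mean of 18.9% and 21.8% in 344SQP and 17.7% and 21.8% in 344SQR. The genes differed: Kdr, of endothelium, was at 8.48% and 13.2% in 344SQP and at 11.4% and 26.8% in 344SQR, where the lines overlapped. Col1a2, of fibroblasts, was at 20.8% and 25.7% in 344SQP and at 18% and 14.4% in 344SQR, and Pdgfrb at 27.4% and 26.4% in 344SQP and at 23.9% and 24.2% in 344SQR, both without overlap. With the reads of each site thinned to the lowest coverage among the 4 tumors, 447 shores were called lower and 115 higher, against 488 and 114 at full depth. The part of host cells and of chromosome Y content in the differences between shores was not tested.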

How the data were processed

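RRBS was available for 2 tumors of 344SQP and 2 of 344SQR, grouped by the sample labels. The authors processed the reads with Trim Galore 0.4.1, cutadapt 1.9.1, Bismark, Bowtie 1.1.2 and methylKit on mm10, per the submitters' notes, and deposited for each CpG and strand the coverage as a count of reads and the methylated share as a percent of them. Each tumor has its own table, without normalization. Methylated reads were recomputed as coverage times percent, rounded to whole reads. All 1081076 sites with at least 20 reads in every tumor matched the bases of GRCm38.

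TSS came from the GENCODE vM21 basic annotation. The coverage minimum, the promoter window and the combination of sites by Stouffer's z score follow the study's methods. The p of a site was not taken below 2.2e-16. Tests ran over all 73673 regions with at least 3 sites, in Python 3.11.15 (numpy 2.4.6, scipy 1.17.1, pandas 2.3.3, pysam 0.24.0) and R 4.3.3 (edgeR 4.0.16, limma 3.58.1). The likelihood ratio, Mantel-Haenszel and edgeR tests were also run on simulated reads. Simulated tumors of a line had the same methylation rates, so how the tests behave under a spread between tumors was not examined. Values of 1 number per tumor were compared by two-sided exact permutation. Intervals cover counting error only. Nothing says how far apart in handling the tumors of a line were, so p-values of edgeR, limma and the permutation tests measure only the spread between these tumors. Those of the likelihood ratio, Mantel-Haenszel and Fisher tests measure the counting error of reads and not that spread.

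Shores were named by a rule: at least 5 sites, an FDR under 0.05 and no overlap between the lines, the 10 lowest and 10 highest differences, and in each gene list the 2 largest absolute differences. Not every allele of the lines and not every measured promoter of a leukocyte marker is given, so the mean over those markers is left out. The members and lists were chosen with earlier results of these data known. Alternatives were coverage minimums of 10 and 50 reads, strands of a CpG added, at least 5 sites in a stretch, at least 40 in the promoter, only protein-coding promoter windows to drop a stretch, overlapping stretches left out, each tumor left out, pooled reads, stretches with sites in every bin, thinned reads, Fisher's exact test, Mantel-Haenszel and edgeR with the replicate number as block, edgeR without it and limma.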

Additional observations from a re-analysis of the deposited data

How the results depend on the processing

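The mean, the median, the farthest-bin difference and the gap between shore and own promoter were negative under every alternative run for them, taken singly. The mean ranged from −5.06 to −2.77 points. Calls depended most on the test. edgeR without block and limma called 0 lower and 0 higher, against 488 and 114. No label gives a common source to equally numbered tumors, although their deviations from the line mean went together across shores (Pearson correlation 0.706). With the replicate number as block, edgeR called 140 lower (13.9%, against 10.7% of promoters and 22.6% of windows) and 18 higher (1.79%, against 2.74% and 1.11%), and Mantel-Haenszel 482 and 113. Fewer shores qualified at a coverage minimum of 50 reads, at 5 sites in a stretch and at 40 sites in the promoter. Called lower were 317 of 695, 308 of 638 and 297 of 645, against 488 of 1007 in the main setting. At 50 reads the farthest-bin difference was −2.72, and at 5 sites the median difference was −3.14. Only 2 stretches had sites in each bin, with a nearest-bin difference of 2.18 and a farthest-bin difference of −0.0756, and far minus near was −2.26. Their nearest-bin value was −0.205 without replicate 1 of 344SQP and −0.367 without replicate 2 of 344SQR. Their farthest-bin value was 2.18 without replicate 2 of 344SQP and 0.866 without replicate 1 of 344SQR, so both signs rest on single tumors. In the 44 stretches with sites in the nearest and the farthest bin, chosen after seeing the data, the farthest-bin difference was −0.131 and far minus near was 2.48. The cause of these shifts was not tested. Leaving out 1 tumor gave 415 to 509 shores called lower, 62 to 165 called higher, −1.39 to 1.62 points for the own promoters, and −2.23 to 31.8 points for the shore of Ovol2. Leaving out overlapping stretches changed nothing, since none overlapped. For the 34 named shores, 450 of 540 alternative values stayed on the same side of the threshold without reversing a call. Among these, shores that were not called changed sign at Rps25 (2.48 without replicate 2 of 344SQR), Irf2 (−0.654 without replicate 1 of 344SQR) and Dnmt3b (−0.569 without replicate 1 of 344SQP). Of the 450, 34 with pooled reads and 34 with overlapping stretches left out could not differ, since these settings left the test as it was. At 5 sites in a stretch, 40 in the promoter and protein-coding windows only (25, 19 and 34 values), only the adjustment could change. Of the 88 losses of a call 30 were in edgeR without block and 30 in limma. With 2 tumors per line, no single value can pass an exact test, and shores without CCGG fragments were not measured.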

Other observations

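At some genes the shore and the own promoter differed in opposite directions. The shore of Kcnk4 was lower in both resistant tumors, while its promoter, on chromosome 19 from 6934015 to 6935515, stood at 32.4% and 53.6% in 344SQP and at 54.2% and 77.6% in 344SQR. The promoter difference of 22.9 points rests on lines that barely separate, since replicate 1 of 344SQR and replicate 2 of 344SQP were almost level. At Cldn3, with a shore difference of −17.8 points, the promoter on chromosome 5 from 134985214 to 134986714 was at 10.6% and 21.4% in 344SQP and at 24.5% and 35.8% in 344SQR. Both resistant tumors were above both parental tumors there. Among the 114 shores called higher, the promoter of the gene was called lower in 39 (34.2%) and higher in 33 (28.9%), against 24.7% and 14.6% over the promoters of all 1007 shores, so calls in both directions were more frequent there.

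The highest difference of all was at Myh9, which encodes a nonmuscle myosin heavy chain, and it was chosen after its values were seen because its 4 sites fall below the 5 required of named shores. Its intergenic sites, in the stretch on chromosome 15 from 77843176 to 77846175, were at 43.7% and 41.2% in 344SQP and at 77.2% and 77.5% in 344SQR, with 36 to 73 reads per site. Tumors of a line were nearly identical, unlike at most named shores, and the promoter of Myh9 was between 0.796% and 1.23% in all tumors. The difference was 34.9 points, with an edgeR p of 0.00638 before and 0.197 after Benjamini-Hochberg adjustment.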
